A study of Homo sapiens with 18 samples.

Results

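The 38 genes described here carry out glycolysis or belong to the hypoxia response, and were chosen by gene symbol from the 31004 genes of the count table. They comprised 2 glucose transporters (SLC2A1, SLC2A3), 15 glycolytic enzymes from hexokinase to pyruvate kinase, 2 lactate dehydrogenase subunits (LDHA, LDHB), 3 monocarboxylate transporters (SLC16A1, SLC16A3, SLC16A6), 2 enzymes that set the level of fructose-2,6-bisphosphate (PFKFB3, PFKFB4), 4 pyruvate dehydrogenase kinases (PDK1 to PDK4) and 10 other hypoxia response genes. All 38 symbols were found, and all 38 passed the filter on low counts in each of the 6 comparisons of 2 groups. RNA was sequenced from HCT116, an established human colorectal carcinoma line, in 18 libraries. The cells stably overexpressed the lncRNA CRLM1 (gene LINC01767), overexpressed the antisense of CRLM1, or carried the empty vector (Ctrl). On top of these 3 backgrounds, hnRNPK was overexpressed or a negative control (NC) was used, which gave the groups Ctrl_NC, Ctrl_hnRNPK, CRLM1_NC, CRLM1_hnRNPK, Antisense_NC and Antisense_hnRNPK, with 3 biological replicates each. HNRNPK encodes hnRNPK, a protein that binds single-stranded RNA and DNA. The paper described lentiviral transduction and puromycin selection for the expression of CRLM1, and did not spell them out for the antisense and empty-vector cells. Only 1 line per background was described, so an effect of the overexpressed RNA and a difference between lines cannot be told apart. No low-oxygen treatment was stated for any group.

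Glycolysis converts glucose taken up by GLUT transporters into pyruvate, which lactate dehydrogenase reduces to lactate for export by monocarboxylate transporters. Many carcinoma cells run this pathway at a high rate even when oxygen is present. When oxygen is scarce, prolyl hydroxylases stop marking the alpha subunits of HIF transcription factors for degradation, and HIF raises the transcription of glucose transporters, most glycolytic enzymes and LDHA, together with PDK1, which holds pyruvate back from the mitochondria, and genes of acid balance, vessel growth and mitophagy such as CA9, VEGFA and BNIP3.

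HIF binds DNA at the core letters ACGTG or GCGTG, so the start-site windows of the 4 members that changed at least 2-fold between Antisense_NC and Ctrl_NC are shown first. Each sequence runs 5′ to 3′ on the gene's strand from 250 bases before to 50 bases after the start, from RefSeq on GRCh38.p14, with the core in capitals on either strand (ACGTG and GCGTG, or their reverse complements CACGT and CACGC).
CA9 (chr9:35673678-35673977, plus strand): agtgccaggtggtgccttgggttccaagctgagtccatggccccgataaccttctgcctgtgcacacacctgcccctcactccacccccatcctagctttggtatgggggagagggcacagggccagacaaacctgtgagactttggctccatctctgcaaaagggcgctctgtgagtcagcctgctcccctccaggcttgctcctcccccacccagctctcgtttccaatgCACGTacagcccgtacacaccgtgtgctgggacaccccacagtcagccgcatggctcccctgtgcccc
PDK3 (chrX:24465036-24465335, plus strand): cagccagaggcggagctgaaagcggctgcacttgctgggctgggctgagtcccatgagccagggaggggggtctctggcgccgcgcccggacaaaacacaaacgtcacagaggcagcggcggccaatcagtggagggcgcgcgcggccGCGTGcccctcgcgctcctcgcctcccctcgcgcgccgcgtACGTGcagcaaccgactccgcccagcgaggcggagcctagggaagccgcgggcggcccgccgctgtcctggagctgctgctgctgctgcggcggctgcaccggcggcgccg
ADM (chr11:10304823-10305122, plus strand): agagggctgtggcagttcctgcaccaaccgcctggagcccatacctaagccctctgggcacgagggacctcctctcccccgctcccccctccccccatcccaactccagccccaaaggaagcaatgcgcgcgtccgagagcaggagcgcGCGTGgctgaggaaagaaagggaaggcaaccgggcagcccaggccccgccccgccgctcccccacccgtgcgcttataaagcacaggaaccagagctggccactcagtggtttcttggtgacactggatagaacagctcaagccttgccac
ANKRD37 (chr4:185396591-185396890, plus strand): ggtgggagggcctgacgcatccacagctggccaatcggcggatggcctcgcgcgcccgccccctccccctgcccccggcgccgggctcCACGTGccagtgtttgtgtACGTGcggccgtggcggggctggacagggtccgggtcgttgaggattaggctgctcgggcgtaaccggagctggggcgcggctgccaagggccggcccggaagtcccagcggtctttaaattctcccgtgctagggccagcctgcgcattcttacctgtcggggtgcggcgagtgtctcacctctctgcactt
The CA9 window held the core once, as CACGT 18 bases before the start. The PDK3 window held it at 2 places, as GCGTG 102 and as ACGTG 61 bases before the start. In the ANKRD37 window it stood at 2 places, 162 and 143 bases before the start, and the first of these was part of CACGTG, the palindromic letters of another family of factors that also contain the core. The ADM window held it once, as GCGTG 101 bases before the start. Of 35116 windows of all genes, 48.4% held either form of the core, 21.4% held ACGTG and 7.26% held CACGTG. Promoter windows were matched for 32 members, and 29 of these held either form in at least 1 window and 20 held ACGTG. These 32 members had 61 windows, and no count by gene was made over all genes. Only the shares by window can therefore be compared with those of all genes. By window, either form was in 40 of 61, or 65.6%, and ACGTG in 24, or 39.3%. Windows for VEGFA, SLC16A1, NDRG1, BNIP3L, SLC2A3 and SLC16A6 were not matched. A match describes letters and not a bound site.

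Library totals ran from 19732681 to 27039520 counts. LINC01767 was at 599 and 616 CPM (counts after TMM scaling for depth) in the CRLM1 groups, at 0 counts in the Ctrl groups, and at 49.8 and 42.2 CPM in the Antisense groups. The use of strand in counting was not stated, and a count without strand could not tell the antisense sequence from CRLM1. HNRNPK averaged 471, 457 and 430.3 CPM in the NC groups of Ctrl, CRLM1 and Antisense. With the construct it measured 617, 644 and 491 CPM in Ctrl, 671, 713 and 571 CPM in CRLM1 and 540.1, 532 and 583 CPM in Antisense. The third library labelled Ctrl_hnRNPK was thus near the highest Ctrl_NC library (479.7 CPM), and HNRNPK passed edgeR's test with all libraries in Antisense (adjusted p = 0.00084) but not in Ctrl (adjusted p = 0.36) or CRLM1 (adjusted p = 0.53). Whether the third libraries of Ctrl_hnRNPK and CRLM1_hnRNPK carried the construct at the level of the others was not tested. The epithelial markers EPCAM, KRT8, KRT18, KRT19 and CDH1 were present in every group, as was the intestinal factor CDX2 at 4.74 to 15.4 CPM, whereas the intestinal markers VIL1 and LGALS4 were near 0. These markers moved as well: 4 of 6 tested fell and 2, CDH1 and CDX2, rose in Antisense_NC against Ctrl_NC, and 5 of 7 fell and EPCAM rose in Antisense_hnRNPK against Antisense_NC. Their summed level ran over 6641 to 6898 CPM in the Ctrl_NC libraries, 5312 to 5570.1 in Antisense_NC and 3498 to 3617 in Antisense_hnRNPK, and its part in the results on the members was not tested. CDX1 was not found in the count table. Among markers of other cell types, PTPRC, COL1A2, PECAM1 and ALB were near 0. The fibroblast marker COL1A1 averaged 22.9 CPM in Ctrl_NC, and ran from 13.2 CPM in Antisense_hnRNPK to 31.5 CPM in Antisense_NC. Replicate 3 of Ctrl_hnRNPK and replicate 3 of CRLM1_hnRNPK stood apart. Over the 38 members, the median absolute log2 difference from the NC mean was 0.566 and 0.577 in Ctrl_hnRNPK replicates 1 and 2 and 0.071 in replicate 3. It was 0.483, 0.395 and 0.244 in the CRLM1_hnRNPK replicates and 0.623, 0.639 and 0.584 in the Antisense_hnRNPK replicates. Results with the construct are therefore given with and without the third hnRNPK libraries.

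On the length-scaled unit FPKM, the members spanned a wide range in Ctrl_NC. The aldehyde-oxidising enzyme GAPDH led with 10659 ± 182 FPKM (SD, n = 3), followed by aldolase ALDOA at 3047 ± 64.7 and enolase ENO1 at 2339 ± 28.6. NDRG1, a stress-responsive gene, stood at 1258 ± 28.0 FPKM, pyruvate kinase PKM at 1181 ± 16.1 and LDHA at 918 ± 8.70, and the intervals of mean ± SD did not meet for any neighbouring pair of these 6. The main isozyme of each step was HK2 among hexokinases (103 against 39.1 FPKM for HK1), PFKP among phosphofructokinases (156 against 105 for PFKL and 34.9 for PFKM) and SLC2A1, encoding GLUT1, among the transporters (288 against 14.0 for SLC2A3). The remaining glycolytic enzymes lay between 262 (ENO2) and 893 FPKM (glucose-6-phosphate isomerase GPI). Outside that class, LDHB was at 241 FPKM, PFKFB3 at 36.3 and PFKFB4 at 27.3. Lactate exporter SLC16A3, encoding MCT4, was at 125 FPKM and SLC16A1, encoding MCT1, at 11.6. The kinases that inhibit pyruvate dehydrogenase were low, at 3.67, 3.52, 2.72 and 0.313 FPKM for PDK3, PDK1, PDK2 and PDK4. Among the hypoxia response genes, ADM, encoding the vasoactive peptide adrenomedullin, reached 595 FPKM, while CA9, encoding a membrane carbonic anhydrase, was at 5.39 and the HIF prolyl hydroxylase EGLN3 at 3.25. SLC16A6 was lowest at 0.213 FPKM, with 4 to 256 counts per library.

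**Figure D1:**
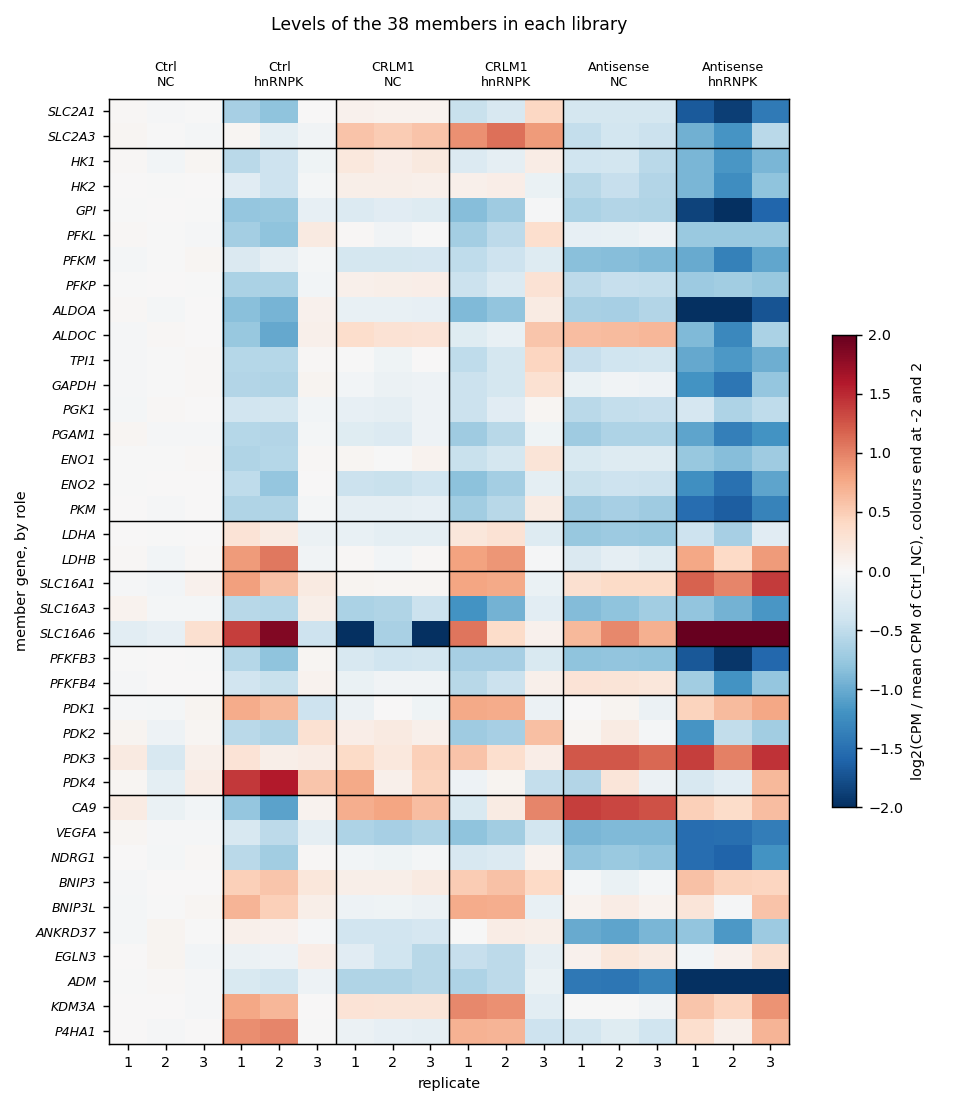
Each row is 1 of the 38 members, in the order of their roles, and each column 1 library; colour gives log2 of the CPM over the mean CPM of Ctrl_NC, with colours ending at -2 and 2. Most glycolytic enzymes are bluer in Antisense_NC and in most hnRNPK libraries than in Ctrl_NC, and the third Ctrl_hnRNPK library resembles Ctrl_NC.

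Antisense_NC was compared with Ctrl_NC to ask how far the 2 control backgrounds differed from each other. Most of the pathway was lower in Antisense_NC: of 38 members, 25 fell, 6 rose and 7 did not pass edgeR's quasi-likelihood test at an adjusted p of 0.05 (Benjamini-Hochberg over all genes). Among all genes tested, 66.5% passed, 34.4% higher and 32.2% lower, and 14.1% also changed 2-fold, as did 4 members. The median log2 fold change was -0.43 over the members and -0.0025 over all genes. Fewer cells of a kind and less RNA per cell cannot be told apart in such bulk libraries.

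Of the 15 glycolytic enzymes, 14 fell and 1 rose between Antisense_NC and Ctrl_NC. PKM, the enzyme of the last step, measured 5632, 5511 and 5619 CPM in the Ctrl_NC libraries and 3416, 3532 and 3427 CPM in the Antisense_NC libraries. Every Antisense_NC library lay below every Ctrl_NC library, and PKM fell by 0.74 on the log2 scale (SE 0.027, adjusted p = 6.6e-24). Phosphofructokinase PFKM fell by 0.90 on the log2 scale (SE 0.041), phosphoglycerate mutase PGAM1 by 0.70 (SE 0.031) and ALDOA by 0.68 (SE 0.026). The smallest falls were those of GAPDH at -0.15 (SE 0.024) and PFKL at -0.19 (SE 0.033). Aldolase C went the other way: ALDOC measured 798, 818 and 811 CPM in Ctrl_NC and 1239, 1254 and 1283 CPM in Antisense_NC, without overlap, a log2 fold change of 0.59 (SE 0.03, adjusted p = 2.4e-19). Both glucose transporters fell, SLC2A1 by 0.40 (SE 0.029) and SLC2A3 by 0.48 (SE 0.053) on the log2 scale.

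At the lactate end of the pathway, LDHA, the subunit that favours lactate formation, measured 3917, 3863 and 3911 CPM in Ctrl_NC and 2313, 2367 and 2330.4 CPM in Antisense_NC. The groups were well apart, with a log2 fold change of -0.79 (SE 0.027, adjusted p = 1.6e-24). LDHB, the subunit common in heart and other oxidative tissue, fell less, by 0.29 (SE 0.034). The 3 monocarboxylate transporters split. SLC16A3 fell by 0.84 (SE 0.036), whereas SLC16A1 rose by 0.31 (SE 0.049) and SLC16A6, at 44, 56 and 39 counts in Antisense_NC, rose by 0.73 (SE 0.28). The 2 enzymes of fructose-2,6-bisphosphate, an activator of phosphofructokinase, also split: PFKFB3 fell by 0.85 (SE 0.037) and PFKFB4 rose by 0.20 (SE 0.04). Among the pyruvate dehydrogenase kinases, PDK3 alone passed the test. It measured 14.9, 10.6 and 14.1 CPM in Ctrl_NC and 31.1, 31.3 and 29.1 CPM in Antisense_NC. Every Antisense_NC library was above every Ctrl_NC library, and PDK3 rose by 1.17 (SE 0.10, adjusted p = 4.7e-13). PDK1, PDK2 and PDK4 had log2 fold changes of -0.061, 0.013 and -0.16, within the spread of the libraries.

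The 10 hypoxia response genes did not move as 1 group between these controls: 5 fell, 1 rose and 4 did not pass. ADM measured 2304, 2348 and 2285 CPM in Ctrl_NC and 857, 848 and 920.0 CPM in Antisense_NC. This was the lowest log2 fold change of any member, -1.45 (SE 0.032, adjusted p = 8.1e-31), and no libraries overlapped. ANKRD37, an ankyrin repeat gene induced by HIF, measured 149, 159 and 152 CPM against 76.2, 73.7 and 81.5 CPM, a log2 fold change of -1.05 (SE 0.047, adjusted p = 5.2e-21). The angiogenic growth factor VEGFA fell by 0.94 (SE 0.032), NDRG1 by 0.82 (SE 0.027) and the collagen prolyl hydroxylase subunit P4HA1 by 0.38 (SE 0.035). CA9, often used as a hypoxia marker in tumours, was the 1 that rose. It measured 14.0, 11.4 and 11.99 CPM in Ctrl_NC and 32.5, 31.3 and 29.9 CPM in Antisense_NC, a log2 fold change of 1.29 (SE 0.092, adjusted p = 5.6e-15). The mitophagy genes BNIP3 and BNIP3L, EGLN3 and the histone demethylase KDM3A lay between -0.12 and 0.11 and did not pass.

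CRLM1_NC was compared with Ctrl_NC to ask how the lncRNA changed these genes. The differences were smaller: 8 members rose, 20 fell and 10 did not pass, against 34.3% of all genes that passed (16.9% higher, 17.4% lower), and only SLC16A6 of the members changed at least 2-fold, against 1.58% of all genes. The median log2 fold change was -0.094 over the members and 0.0059 over all genes. This comparison shares Ctrl_NC with the one above. Of the glycolytic enzymes, 8 fell and 4 rose. Neuronal enolase ENO2, at 1169.5, 1190.2 and 1187 CPM in Ctrl_NC and 874, 864 and 901 CPM in CRLM1_NC, fell by 0.44 on the log2 scale (SE 0.027, adjusted p = 2.8e-16), with no overlap. PFKM fell by 0.37 (SE 0.036) and GPI by 0.27 (SE 0.024), while ALDOC rose by 0.29 (SE 0.028) and HK1 by 0.16 (SE 0.034). SLC2A3, encoding the high-affinity glucose transporter GLUT3, measured 80.9, 78.5 and 76.2 CPM in Ctrl_NC and 117, 111 and 117 CPM in CRLM1_NC. All CRLM1_NC libraries were higher, and SLC2A3 rose by 0.53 (SE 0.045, adjusted p = 1.6e-12), whereas SLC2A1 did not pass at 0.059 (SE 0.026, adjusted p = 0.077).

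Among the other roles, LDHA fell by 0.20 (SE 0.024), SLC16A3 by 0.56 (SE 0.043), PFKFB3 by 0.37 (SE 0.034) and PFKFB4 by 0.11 (SE 0.039) in CRLM1_NC against Ctrl_NC. SLC16A6 was at 4, 17 and 5 counts in the CRLM1_NC libraries and 19, 27 and 34 in the Ctrl_NC libraries, a log2 fold change of -1.59 (SE 0.46, adjusted p = 0.006) that rests on few counts. PDK3 was the only pyruvate dehydrogenase kinase that passed, at 0.36 (SE 0.11, adjusted p = 0.014). Of the hypoxia response genes, 7 fell and 2 rose. VEGFA measured 804, 767 and 771 CPM in Ctrl_NC and 508, 495 and 512 CPM in CRLM1_NC, with every CRLM1_NC library lower, and fell by 0.64 (SE 0.029, adjusted p = 3.1e-20). ADM, at 1523, 1519.8 and 1579 CPM in CRLM1_NC, fell by 0.60 (SE 0.026), and EGLN3 and ANKRD37 fell by 0.40 and 0.39. The 2 that rose were CA9, at 20.7, 21.6 and 19.2 CPM in CRLM1_NC and a log2 fold change of 0.71 (SE 0.10, adjusted p = 5.4e-07), and KDM3A at 0.25 (SE 0.038, adjusted p = 2.1e-06).

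CRLM1_NC was also compared with Antisense_NC, the other control, which shares libraries with both comparisons above. Here most of the members were higher with CRLM1: 25 rose, 8 fell and 5 did not pass, against 56.4% of all genes that passed (26.9% higher, 29.5% lower). The median log2 fold change was 0.34 over the members and -0.0034 over all genes, and 2 members changed at least 2-fold, against 7.18% of all genes. Among the glycolytic enzymes 12 rose and 1 fell, led by HK2 at 0.68 (SE 0.033), HK1 at 0.65 (SE 0.041), PFKP at 0.64 (SE 0.032) and PKM at 0.55 (SE 0.028). ALDOC was the 1 that fell, at -0.29 (SE 0.031), and GAPDH and ENO2 did not pass at 0.047 and 0.042. SLC2A3, at 117, 111 and 117 CPM in CRLM1_NC against 56.2, 60.6 and 58.1 CPM in Antisense_NC, rose by 1.02 (SE 0.05, adjusted p = 1.5e-19), and SLC2A1 by 0.46. LDHA rose by 0.60 and LDHB by 0.28. PFKFB3 rose by 0.48 and PFKFB4 fell by 0.31, while SLC16A3 rose by 0.28 and SLC16A1 and SLC16A6 fell by 0.28 and 2.31. Among the hypoxia response genes 7 rose, with ADM at 0.85 (SE 0.033), NDRG1 at 0.76 (SE 0.028) and ANKRD37 at 0.66 (SE 0.049), and 3 fell, CA9 at -0.57 (SE 0.083), EGLN3 at -0.51 (SE 0.092) and BNIP3L at -0.16 (SE 0.04). PDK3 fell by 0.81 (SE 0.087).

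The scaling of the libraries moved these counts. On the authors' FPKM (limma on log2(FPKM + 0.1)), the median of all genes shifted by 0.21 in Antisense_NC against Ctrl_NC, and 70.4% of the passing genes were higher in place of 51.6%. The members there were 11 up and 22 down, against 66.1% of all genes that passed, and GAPDH turned to 0.087. For CRLM1_NC against Ctrl_NC the shift was 0.073, the share higher 66.2% in place of 49.4%, and the members 11 up and 15 down, against 30.5% of all genes that passed. For CRLM1_NC against Antisense_NC they were -0.16, 27.3% in place of 47.6%, and 21 up and 10 down, against 54.2%. In a single fit of all 18 libraries, whose spread takes in the hnRNPK groups, 18 members passed for Antisense_NC against Ctrl_NC, 12 for CRLM1_NC against Antisense_NC and 1, VEGFA, for CRLM1_NC against Ctrl_NC, beside 32.5%, 15% and 0.651% of all genes. The directions of ADM, VEGFA, ANKRD37, LDHA, PKM, ALDOC, CA9 and PDK3 given above were the same on both scales.

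**Figure D2:**
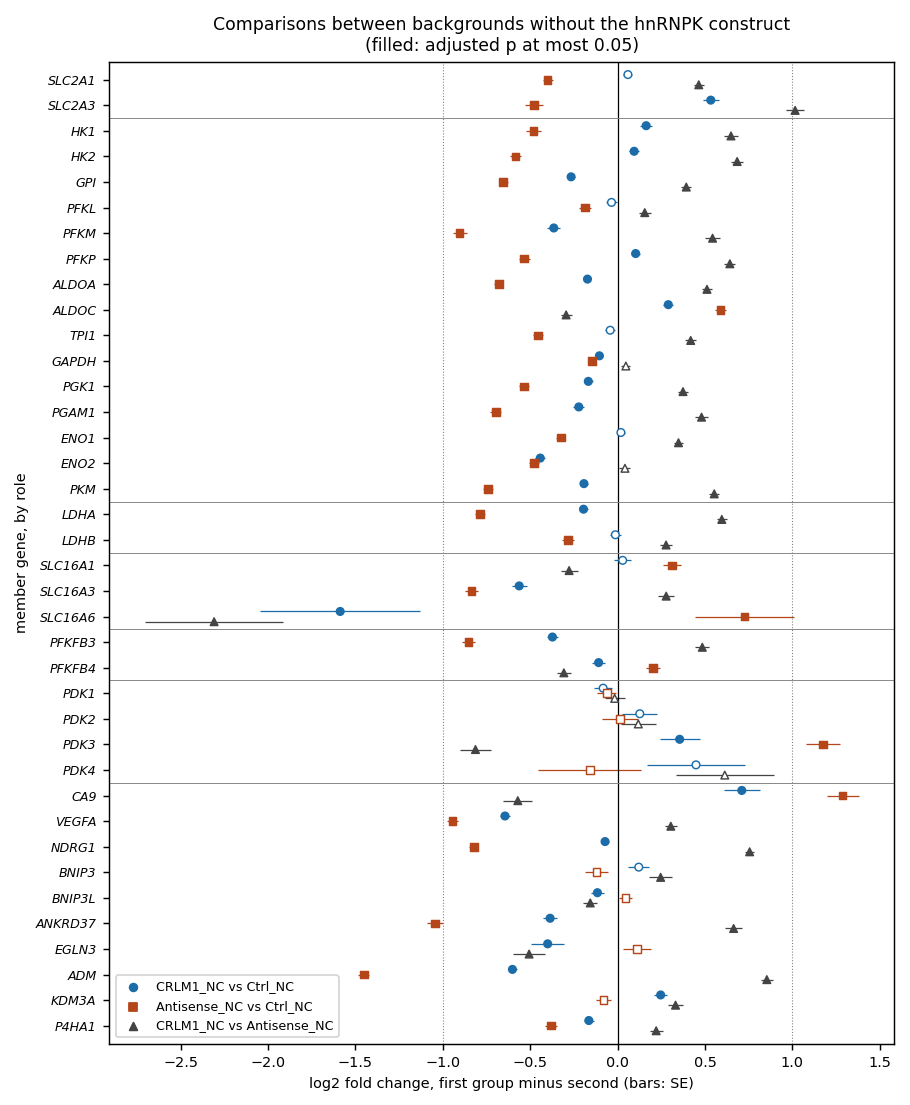
Log2 fold change of each member (x axis, bars show the SE) in the 3 comparisons among CRLM1_NC, Antisense_NC and Ctrl_NC, with members in rows by role, filled symbols for an adjusted p of at most 0.05 and dotted lines at 2-fold. The Antisense_NC against Ctrl_NC squares lie left of 0 for 14 of 15 glycolytic enzymes, and PDK3 and CA9 lie furthest right among them, at 1.17 and 1.29.

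Shares within isozyme families describe these shifts without any scaling between libraries. The share of ALDOC in the summed FPKM of ALDOA and ALDOC was 8.36% ± 0.242 in Ctrl_NC (SD, n = 3), against 11.2% ± 0.172 with CRLM1 and 18.01% ± 0.226 in Antisense_NC. PFKFB4 made up 42.9% ± 0.291, 47.5% ± 1.33 and 61.0% ± 0.268 of PFKFB3 plus PFKFB4, so that it was the larger of the pair in Antisense_NC alone among these groups. PDK3 made up 35.7% ± 3.25, 41.0% ± 2.85 and 56.3% ± 0.997 of the 4 pyruvate dehydrogenase kinases. In each of these 3 families the Antisense_NC libraries did not overlap Ctrl_NC (exact permutation test, two-sided, p = 0.1, the smallest that 3 against 3 libraries can give). The share of LDHB in the lactate dehydrogenases was 20.8% ± 0.449 in Ctrl_NC, 22.9% ± 0.452 in CRLM1_NC and 27.0% ± 0.566 in Antisense_NC, and was 36.2% ± 1.19 in Antisense_hnRNPK. SLC16A1 went from 8.49% ± 0.598 of the 3 monocarboxylate transporters in Ctrl_NC to 17.0% ± 0.613 in Antisense_NC and 29.0% ± 5.14 in Antisense_hnRNPK, the remainder being nearly all SLC16A3. Shares are not corrected for GC content, which was 43.5% for SLC16A1 and 62.65% for SLC16A3. With the GC and length trend removed, as described further on, both rose by similar amounts in Antisense_hnRNPK against Antisense_NC. LDHB still rose there and LDHA did not. The part of that trend in the step from 17.0% to 29.0% was not tested. In 7 of 9 families the most abundant member was the same in all 6 groups, namely HK2, PFKP, ALDOA, ENO1, LDHA, SLC2A1 and SLC16A3. The pairs PFKFB3 and PFKFB4 and the pyruvate dehydrogenase kinases were the exceptions.

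**Figure D3:**
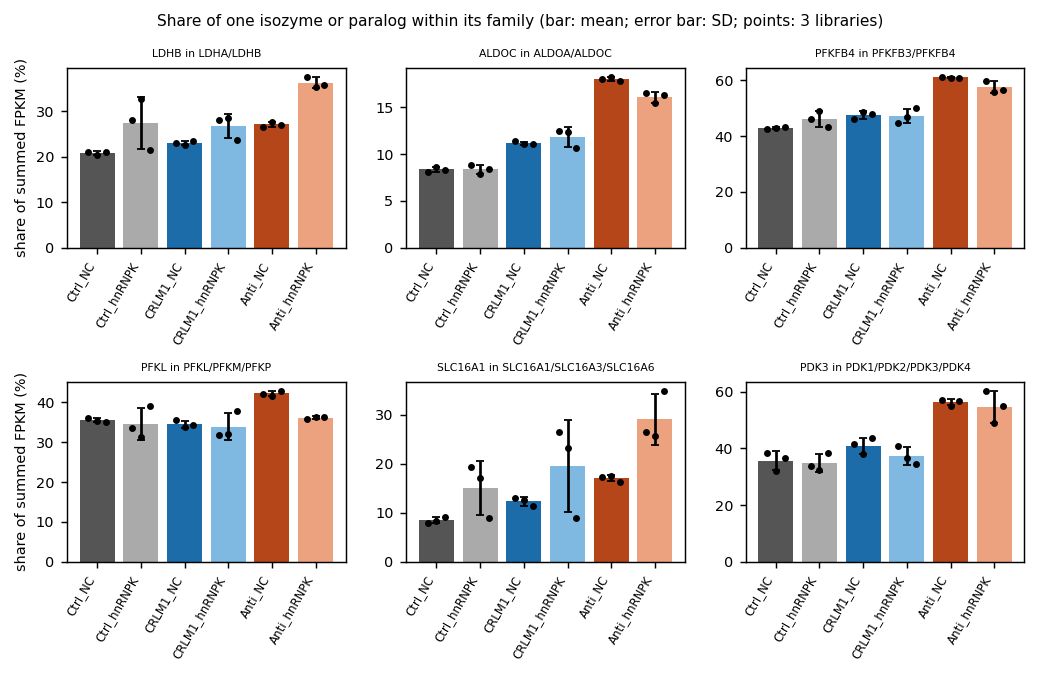
Share of 1 isozyme or paralog in the summed FPKM of its family (y axis, percent, from 0) in the 6 groups (Anti for Antisense), with bars for the mean, error bars for the SD and points for the 3 libraries. ALDOC, PFKFB4 and PDK3 stand higher in Antisense_NC, at 18.01%, 61.0% and 56.3%, than in Ctrl_NC, and LDHB and SLC16A1 stand highest in Antisense_hnRNPK. The shares are not corrected for GC content.

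Genes around the pathway were followed in lists of neighbours. In Antisense_NC against Ctrl_NC, where 34.4% of all genes passed higher and 32.2% lower, 8 of 9 further hypoxia-induced genes fell and 1 rose. Among them HILPDA, a lipid droplet protein, fell by 1.44 (SE 0.032), the carbonic anhydrase CA12 by 1.11 (SE 0.10) and the mTORC1 inhibitor DDIT4 by 0.87 (SE 0.03). CA9 and CA12, both membrane carbonic anhydrases, thus had opposite signs. Of 7 genes of hypoxia sensing tested, 2 rose, HIF1A itself by 0.46 (SE 0.057), and 3 fell. With the GC and length trend removed 0 of these 7 rose and 3 fell, and on FPKM 4 rose and 0 fell. Of 10 genes of the pyruvate dehydrogenase complex, its phosphatases and the mitochondrial pyruvate carriers, 7 rose and 1 fell, with DLD at 0.75 (SE 0.075) and PDHX at 0.74 (SE 0.092). The pentose phosphate pathway, which branches from glucose-6-phosphate, had 5 of 7 genes fall and none rise. In CRLM1_NC against Ctrl_NC, where 16.9% of all genes passed higher and 17.4% lower, 7 of the 9 further hypoxia-induced genes fell and 1 rose, 4 of the 10 genes of the pyruvate dehydrogenase list rose, and 3 of 7 pentose phosphate genes fell.

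The hnRNPK construct was compared with its negative control within each background. In the Antisense background 23 members fell, 8 rose and 7 did not pass, against 63.9% of all genes that passed (33.4% higher, 30.5% lower). At least 2-fold changes were found in 8 members, 7 of them lower, against 13.4% of all genes (7.28% higher, 6.1% lower), and the median log2 fold change was -0.47 over the members and 0.04 over all genes. On FPKM the median of all genes shifted by 0.25, the share higher was 67.8% in place of 52.3%, and the members were 12 up and 19 down, against 63% of all genes that passed.

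Of the glycolytic enzymes in the Antisense background, 14 fell with the construct. ALDOA measured 11689, 11605 and 12239 CPM in Antisense_NC and 4589.6, 3745 and 5526 CPM in Antisense_hnRNPK. The highest library with the construct was below the lowest without it, and ALDOA fell by 1.37 on the log2 scale (SE 0.12, adjusted p = 4.3e-07). ALDOC went from 1239, 1254 and 1283 to 441, 331 and 519 CPM and fell by 1.56 (SE 0.12, adjusted p = 2.6e-07), the largest fall of any member. GPI fell by 1.24 (SE 0.11) and GAPDH, the reference gene of the study's quantitative PCR, by 1.02 (SE 0.14). PGK1, phosphoglycerate kinase, did not pass, with 1636, 1713 and 1722 CPM in Antisense_NC and 1882, 1539.6 and 1672 CPM in Antisense_hnRNPK. SLC2A1 measured 1188, 1179.9 and 1184 CPM in Antisense_NC and 473, 411 and 569 CPM in Antisense_hnRNPK, with every library of the latter lower, and fell by 1.30 (SE 0.10, adjusted p = 1.8e-07). PFKFB4 fell by 1.14 (SE 0.10) and PFKFB3 by 0.93 (SE 0.088).

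Most genes of the lactate step went against the enzymes upstream of them. LDHB measured 448, 484 and 457 CPM in Antisense_NC and 934, 719 and 986 CPM in Antisense_hnRNPK. The groups did not overlap, and LDHB rose by 0.92 (SE 0.10, adjusted p = 3e-06). LDHA rose by 0.30 (SE 0.10, adjusted p = 0.015), SLC16A1 by 0.83 (SE 0.091, adjusted p = 2.7e-06) and SLC16A6 by 1.73 (SE 0.20, adjusted p = 4.3e-06), while SLC16A3 did not pass at -0.17 (SE 0.10). With the trend of GC content and length removed, as described further on, LDHA was at -0.25, LDHB at 0.67 and SLC16A3 at 0.46 (SE 0.10, adjusted p = 0.0022). PDK1 rose by 0.63 (SE 0.089) and PDK2 fell by 0.82 (SE 0.16). The hypoxia response genes split, with 3 up and 4 down. P4HA1 rose by 0.72 (SE 0.11), KDM3A by 0.66 (SE 0.10) and BNIP3 by 0.56 (SE 0.082), and with that trend removed BNIP3 still rose, whereas P4HA1, KDM3A and PDK1 did not pass. ADM measured 857, 848 and 920.0 CPM in Antisense_NC and 348, 226 and 453 CPM in Antisense_hnRNPK and fell by 1.37 (SE 0.19, adjusted p = 0.00016), with no overlap. CA9, NDRG1 and VEGFA fell by 0.85, 0.66 and 0.58.

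In the Ctrl background, with all libraries, 0 members passed edgeR's quasi-likelihood test and 0% of all genes did. At an unadjusted p under 0.05 there were 11 members and 2246 of the 14607 genes tested, and DESeq2 called 0 members. In the CRLM1 background 0 members and 0% of genes passed, with 7 members and 1332 of 14394 genes at an unadjusted p under 0.05 and 0 members by DESeq2. Per library, ALDOA measured 18629.9, 17930.5 and 18442 CPM in Ctrl_NC and 10247, 9594 and 19503 CPM in Ctrl_hnRNPK. LDHB measured 556, 523 and 556 CPM in Ctrl_NC and 985, 1129 and 519 CPM in Ctrl_hnRNPK. The first 2 libraries with the construct lay far from the control and the third among or beside it, in opposite directions for the 2 genes. The CRLM1 background had the same pattern, with ALDOA at 9956, 10648 and 20612 CPM in CRLM1_hnRNPK against 16585, 16466 and 16302 CPM in CRLM1_NC. There the third library lay above the control for ALDOA.

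**Figure D4:**
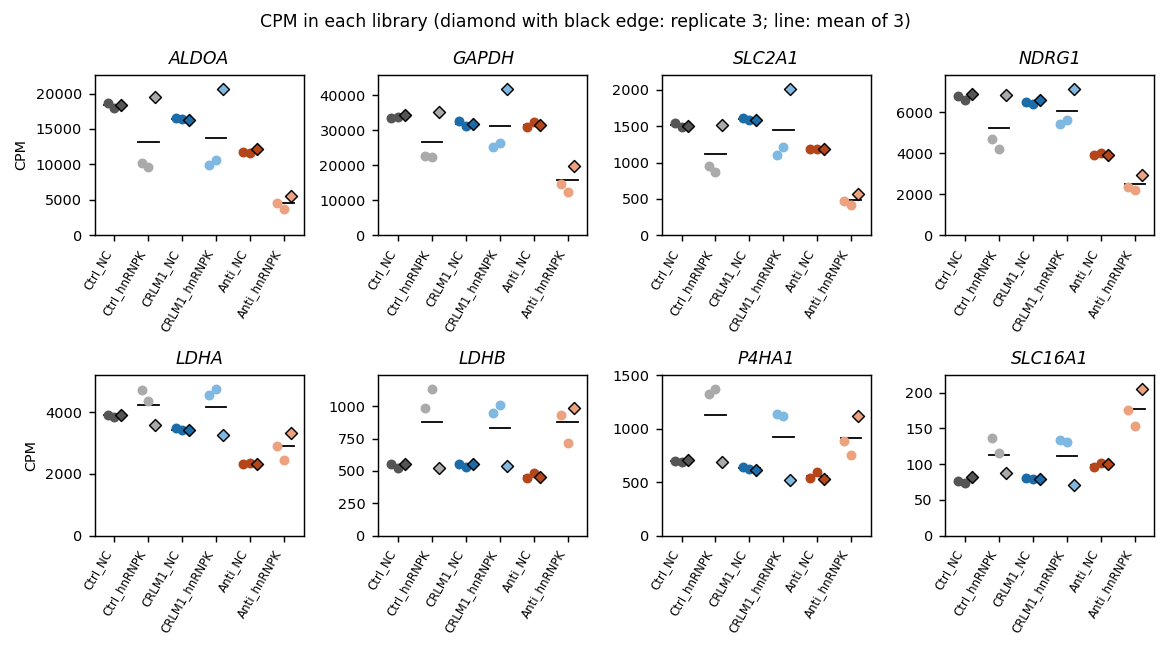
CPM of 8 members in each library (y axis from 0) in the 6 groups (Anti for Antisense), with a line at the mean of 3 and replicate 3 drawn as a diamond. In Ctrl_hnRNPK and CRLM1_hnRNPK the diamonds of ALDOA, GAPDH, SLC2A1, NDRG1, LDHA, LDHB, P4HA1 and SLC16A1 stand apart from the other 2 points, whereas in Antisense_hnRNPK all 3 lie on the same side of Antisense_NC.

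Without the third hnRNPK libraries, a choice that the study made from the profiles themselves, both backgrounds moved. In Ctrl, 24 members fell and 10 rose, against 59.6% of all genes that passed (29.6% higher, 29.9% lower), and 2 changed at least 2-fold, against 6.88% of all genes. In CRLM1, 20 fell and 11 rose, against 58.5% (29.5% higher, 29.1% lower), and 1 changed at least 2-fold, against 5.3%. The medians were -0.39 and -0.22 over the members and 0.026 and 0.00092 over all genes. All 15 glycolytic enzymes fell in Ctrl and 13 in CRLM1, where HK2 and PFKM had log2 fold changes of 0.05 and -0.063 and did not pass. ALDOA fell by 0.86 (SE 0.042) in Ctrl and 0.63 (SE 0.047) in CRLM1. GPI fell by 0.74 and 0.48, and SLC2A1 by 0.70 and 0.40. LDHB rose by 0.98 (SE 0.057) in Ctrl and 0.89 (SE 0.047) in CRLM1, P4HA1 by 0.97 and 0.89, and PDK1 by 0.72 and 0.87. PDK4, a kinase induced by fasting in many tissues, rose in Ctrl by 1.53 (SE 0.24), from 30, 35 and 40 counts in Ctrl_NC to 99 and 120 in the first 2 Ctrl_hnRNPK libraries, and did not pass in CRLM1 at -0.43 (SE 0.30). SLC2A3 rose in CRLM1 by 0.51 (SE 0.059), did not pass in Ctrl at -0.051 (SE 0.081), and fell in the Antisense background by 0.45 (SE 0.12).

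The 3 backgrounds used different libraries, so their members can be set side by side, with Ctrl and CRLM1 taken without the third hnRNPK library. Members that rose in all 3 numbered 8: LDHA, LDHB, SLC16A1, SLC16A6, PDK1, BNIP3, KDM3A and P4HA1. These were 8 of all 38 members, and 21.2% of the 13969 genes tested in all 3 did the same. In Ctrl, CRLM1 and Antisense taken singly 10, 11 and 8 members rose. Taken singly, 24, 20 and 23 members fell. Members that fell in all 3 numbered 18 of 38, against 22% of the 13969 genes. They were SLC2A1, HK1, GPI, PFKL, PFKP, ALDOA, ALDOC, TPI1, GAPDH, PGAM1, ENO1, ENO2, PKM, PFKFB3, PFKFB4, PDK2, CA9 and NDRG1. With the GC and length trend removed 4 members rose in all 3 (LDHB, SLC16A1, SLC16A6 and BNIP3) and 10 fell (SLC2A1, HK1, GPI, ALDOA, ALDOC, PGK1, PGAM1, ENO1, PKM and PDK3). The share of all genes that did so with the trend removed was not counted, so these counts cannot be compared with it. LDHA was then at -0.29 (SE 0.048, adjusted p = 0.00015) in Ctrl, a fall, and at 0.00061 in CRLM1. As counted, SLC2A3 was the 1 member with opposite signs, in CRLM1 and Antisense.

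The interaction term tested whether the response to the construct differed between backgrounds, and the 3 interactions share libraries. Between CRLM1 and Antisense, 3 members passed with all libraries, against 1.12% of all genes (2-fold 0.926%), and in each the response was higher in CRLM1. For ADM the CRLM1 libraries measured 1523, 1519.8 and 1579 CPM in CRLM1_NC and 1508, 1604 and 2105 CPM in CRLM1_hnRNPK, beside the fall in Antisense given above. The difference between the 2 log2 responses was 1.57 (SE 0.28, adjusted p = 0.027). ALDOC measured 1029, 991 and 981 CPM in CRLM1_NC and 685, 727 and 1186 CPM in CRLM1_hnRNPK, a difference of 1.38 (SE 0.28, adjusted p = 0.034). SLC2A1 measured 1606, 1580.2 and 1588 CPM in CRLM1_NC and 1108, 1216 and 2006 CPM in CRLM1_hnRNPK, a difference of 1.19 (SE 0.27, adjusted p = 0.046). In each of these genes the third CRLM1_hnRNPK library was the highest of its group, and all 3 libraries of Antisense_hnRNPK were below Antisense_NC. Without the third hnRNPK libraries the 3 differences were 1.67, 1.26 and 1.02, and 21 members passed, against 26.5% of all genes. That setting also left out the third Antisense_hnRNPK library, which did not stand apart. Without CRLM1_hnRNPK replicate 3 alone, 16 members passed, against 17.4% of all genes. With all libraries, the share of higher calls among all genes was 71.9%, and 33.1% on FPKM. Between CRLM1 and Ctrl, and between Antisense and Ctrl, 0 members and 0% of genes passed edgeR's test with all libraries. At an unadjusted p under 0.05 there were 4 and 9 members, against 221 of 15188 and 2179 of 15346 genes tested. DESeq2 called 0 and 3 members, against 0% and 2.34% of all genes. Without the third libraries 16 members passed in each, against 3.45% and 16% of all genes. These included ADM at 0.40 (SE 0.067) for CRLM1 minus Ctrl and -1.30 (SE 0.16) for Antisense minus Ctrl, and PDK4 at -1.93 (SE 0.38) for CRLM1 minus Ctrl.

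The GC content of the transcripts moved with the response to the construct. In the Antisense background the 8 members that rose had a GC content of 39.5% to 51.4% (median 42.1%) and the 23 that fell 45.8% to 64.1% (median 54.5%). Across the 38 members Spearman's rho between GC content and log2 fold change was -0.773, and -0.712 across all genes. In Ctrl and CRLM1 without the third hnRNPK libraries it was -0.775 and -0.715 over the members and -0.74 and -0.759 over all genes. These correlations are across genes, which share the same libraries and are not independent. In the comparisons of NC groups the members' rho was -0.0741 for CRLM1_NC against Ctrl_NC, -0.00602 for CRLM1_NC against Antisense_NC and -0.18 for Antisense_NC against Ctrl_NC, and over all genes it was -0.161, 0.288 and -0.301.

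With a smooth trend of GC content and length removed, 5 members rose, 22 fell and 11 did not pass in the Antisense background, against 39.1% of all genes that passed. SLC2A1 at -1.03 (SE 0.12), ALDOA at -1.06 (SE 0.14), ALDOC at -1.24 (SE 0.14), GPI at -0.98 (SE 0.13) and ADM at -0.88 (SE 0.20) still fell, and LDHB at 0.67 (SE 0.11), SLC16A1 at 0.42 (SE 0.094), SLC16A6 at 1.11 (SE 0.19) and BNIP3 at 0.70 (SE 0.079) still rose. LDHA turned to -0.25 (SE 0.11, adjusted p = 0.081), PDK1 to -0.012 (SE 0.077, adjusted p = 0.92), and P4HA1 and KDM3A no longer passed at 0.14 and 0.16. PFKL and PFKP turned to 0.046 and 0.087, neither passing. PGK1 passed, at -0.46 (SE 0.10). LDHB rose with the trend removed in Ctrl and CRLM1 too, by 0.74 and 0.69 without the third hnRNPK libraries, a setting chosen after seeing the data. In that setting HNRNPK itself, the gene of the construct, did not pass in Ctrl at -0.097. Without the third hnRNPK libraries but with the trend kept, HNRNPK had risen there by 0.44. The part of GC content in these responses was not tested beyond this. In the NC comparisons removal of the trend left 7 up and 19 down for CRLM1_NC against Ctrl_NC (33.7% of all genes passing), 27 up and 8 down for CRLM1_NC against Antisense_NC (53.5%), and 5 up and 26 down for Antisense_NC against Ctrl_NC (64.7%).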

How the data were processed

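The 38 members and the neighbouring gene lists were chosen with earlier results of these data known. Libraries were made from total RNA with the KAPA RNA HyperPrep kit. The authors trimmed reads with FASTX-Toolkit, aligned them with TopHat2 to GRCh38 with Gencode v23 models, counted uniquely mapped reads per gene and deposited those counts without normalization. They also deposited FPKM, scaled by exon length and mapped fragments and rounded to hundredths. The use of strand in counting was not stated, which leaves genes that overlap, or lie antisense to, others uncertain. Annotated pseudogene copies held at most 0.0361% of a member's counts.

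Counts were fitted in R 4.3.3 with edgeR 4.0.16 (TMM, filterByExpr, robust quasi-likelihood F-test, two-sided, no replicate block) on the groups compared, and p-values were adjusted by Benjamini-Hochberg over the genes of each fit. A gene passed at an adjusted p of at most 0.05, and a 2-fold change was required where stated. CPM was scaled by TMM over 18 libraries. The fits were tested on simulated data. Alternatives used DESeq2 1.42.0, limma 3.58.1 on log2(FPKM + 0.1 or 1), and a GC and length offset by a spline with 5 degrees of freedom on Gencode v44 transcripts, known for 96.8% of genes. Values were given for at most 4 members that rose and 4 that fell per role and comparison. In 1 setting the third hnRNPK libraries were left out, as the study did in Ctrl and CRLM1 on their profiles. The third Antisense_hnRNPK library was then left out too, although it did not stand apart. Same-numbered replicates did not deviate together (correlations of deviations from -0.14 to 0.0935). Intervals cover spread between these libraries, which the labels call biological replicates, and counting error only, since reads carried no molecular identifiers. Promoter windows came from RefSeq on GRCh38.p14, and the GCGTG form of the core was added to the search after ACGTG had been counted.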

Additional observations from a re-analysis of the deposited data

Results flagged for a closer look

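For 3 members the response to the hnRNPK construct differed between the CRLM1 and Antisense backgrounds by a test of the difference itself, edgeR's interaction term with Benjamini-Hochberg adjustment. The difference of the log2 responses, CRLM1 minus Antisense, was 1.57 for ADM (adjusted p = 0.027), 1.38 for ALDOC (adjusted p = 0.034) and 1.19 for SLC2A1 (adjusted p = 0.046). In Antisense all 3 libraries with the construct were lower than the control for each gene. In CRLM1 the third library was the highest in each, and it is also 1 of the libraries that stood apart over all members. Leaving out 1 library at a time moved the number of members that passed between 0 and 16, beside 0% to 17.4% of all genes.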

How the results depend on the processing

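The comparisons of NC groups kept the number of members that passed within 1.5 times of 28 (CRLM1_NC against Ctrl_NC), 33 (CRLM1_NC against Antisense_NC) and 31 (Antisense_NC against Ctrl_NC) under every alternative but 1. In a single fit of all libraries, whose spread takes in the third hnRNPK libraries, they were 1 (VEGFA), 12 and 18. With 1 library left out they ran from 24 to 28, 33 to 34 and 30 to 31. The shares of all genes that passed then ran from 28.1% to 31.7%, 49.6% to 52.8% and 60.8% to 63%.

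Shares in parentheses are of all genes tested. For the hnRNPK construct, Ctrl gave 2 members without the filter on low counts (PDK4 and P4HA1; 0.942%), 34 without the third hnRNPK libraries (59.6%) and 30 with the GC and length trend also removed (27.3%). CRLM1 gave 31 (58.5%) and 25 (27.1%) in the last 2 settings. Leaving out 1 library gave 0 to 34 in Ctrl (0% to 59.6%) and 0 to 31 in CRLM1 (0% to 58.5%). The highest came without replicate 3 of Ctrl_hnRNPK and of CRLM1_hnRNPK. In Antisense it gave 29 to 34 (55.5% to 64%). The interaction of CRLM1 and Ctrl gave 16 without the third libraries, with or without the GC trend (3.45% and 2.88%), and 0 without any single library. That of Antisense and Ctrl gave 5 without the filter (1.33%), 3 with DESeq2 (ADM, ALDOC, PFKFB4; 2.34%), 1 with the GC trend removed (PFKFB4; 1.42%), and 16 without the third libraries, with or without the GC trend (16% and 15.8%). With 1 library left out it gave 0 to 7, with 7 without Ctrl_hnRNPK replicate 3 (6.62%). That of CRLM1 and Antisense gave 11 without the filter (3.1%), 11 with DESeq2 (8.04%), 5 with limma on log2(FPKM + 1) (5.55%), 15 with the GC trend removed (12.5%), and 21 without the third libraries, with or without the GC trend (26.5% and 27.5%). With 1 library left out it gave 0 to 16. It gave 0 without any 1 NC library (0%) or without Antisense_hnRNPK replicate 1 or 2 (0% and 0.0129%), and 7 without Antisense_hnRNPK replicate 3 (1.95%). Without CRLM1_hnRNPK replicates 1, 2 and 3 it gave 12, 8 and 16 (7.11%, 3.12% and 17.4%). The cause was not tested.

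Some members changed sign. On FPKM, with either pseudocount, NDRG1 went to 0.0019 in CRLM1_NC against Ctrl_NC, PFKL to -0.010 in CRLM1_NC against Antisense_NC, PFKL to 0.048 and GAPDH to 0.087 in Antisense_NC against Ctrl_NC, and PFKP to 0.0052 in Antisense_hnRNPK. With the GC and length trend removed, BNIP3L went to 0.12 in CRLM1_NC against Antisense_NC and GAPDH to 0.011 in Antisense_NC against Ctrl_NC. In Antisense_hnRNPK PFKL went to 0.046, PFKP to 0.087, LDHA to -0.25 and PDK1 to -0.012, and, without the third library as well, to 0.022, 0.079, -0.36 and -0.069, with P4HA1 at -0.013. Without the third library and the GC trend, LDHA went to -0.29, SLC16A3 to 0.013, BNIP3L to -0.075 and ADM to 0.12 in Ctrl_hnRNPK. In CRLM1_hnRNPK PFKL went to 0.042, TPI1 to 0.036, GAPDH to 0.14, ENO2 to 0.037, SLC16A3 to 0.074, PFKFB3 to 0.079 and PFKFB4 to 0.0077. With all libraries kept, GAPDH was at 0.0065 and PGK1 at 9.8e-05 there.

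Same-numbered replicates share only a number. The replicate block alone left the call as it was in all 126 tests compared, which took in only members that had passed in the main fit. The replicate block with the GC and length trend removed gave 4 members for Antisense against Ctrl (2.17%) and 15 for CRLM1 against Antisense (12.1%), with BNIP3L at 0.12 and GAPDH at 0.00999 in the NC comparisons and PFKL at 0.045, PFKP at 0.087, LDHA at -0.26 and PDK1 at -0.015 in Antisense_hnRNPK. The most abundant isozyme was the same in all 6 groups in 7 families, and in 8 from CPM. Depth limits SLC16A6 and PDK4, which had as few as 4 and 25 counts.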

Other observations

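Genes around the pathway also moved with the hnRNPK construct, beside 63.9% of all genes that passed in Antisense and, without the third hnRNPK libraries, 59.6% in Ctrl and 58.5% in CRLM1. In the Antisense background 5 of 7 pentose phosphate genes fell and 2 rose. In Ctrl and CRLM1 without the third hnRNPK libraries 5 of 7 fell as well, and 1 and 2 rose. With the GC and length trend removed none rose, and 4, 4 and 2 fell in Antisense, Ctrl and CRLM1. Of the pyruvate dehydrogenase complex with its phosphatases and the mitochondrial pyruvate carriers, 4 of 10 genes rose and none fell in Antisense, led by DLD at 1.02 (SE 0.079), which encodes the dihydrolipoamide dehydrogenase subunit. In Ctrl 5 rose and none fell, and in CRLM1 7 rose and 1 fell. With the trend removed the counts were 2 up and 3 down in Antisense, 0 and 2 in Ctrl, and 1 and 2 in CRLM1. Of 7 genes of hypoxia sensing in Antisense, 4 rose, VHL by 0.58 (SE 0.11), and 2 fell, EPAS1, encoding HIF-2 alpha, by 0.79 (SE 0.088); with the trend removed 2 rose and 3 fell. Of 9 further hypoxia-induced genes 2 rose and 4 fell in Antisense, 3 rose and 4 fell in Ctrl, and 5 rose and 3 fell in CRLM1. With the trend removed these were 2 and 5, 0 and 3, and 5 and 2. ARRDC4, an arrestin-family gene driven by the glucose sensor MondoA, was higher in Antisense_NC than in Ctrl_NC by 2.06 (SE 0.091). It was 1 of 3 such genes tested, of which 2 rose and none fell, against 34.4% and 32.2% of all genes.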
